A study of Mus musculus with 6 samples.

Results

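Fibroblasts and the stroma around a tumour were followed here through 10 marker genes (Dcn, Lum, Postn, Sparc, Fn1, Pdgfra, Pdgfrb, Thy1, Fap and Vim), picked out by mouse symbol from the 53700 gene rows of a bulk RNA sequencing count table. All 10 were found and all 10 were among the 19127 genes with enough counts to be tested. There were 6 libraries, 3 per group, each from a mouse colon tumour. The 3 APC-KI tumours came from animals of genotype APC-KI in which doxycycline represses endogenous Tcf7l2 throughout the body, which had taken doxycycline for 6 weeks and had recovered from wasting. The 3 APC-WT tumours came from animals of genotype APC-WT that keep endogenous Tcf7l2 expression, had taken doxycycline for 10 days and were cachectic, the wasting state of advanced cancer. Both groups ate pellets with 100 mg/kg doxycycline. Genotype, time on doxycycline and cachexia state therefore cannot be told apart, and all values below are for these 2 sets of tumours. The labels do not state age, sex or how many tumours each library holds, so p values measure the spread between these samples.

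Fibroblasts lay down and remodel the extracellular matrix, the mesh of collagen, proteoglycans and glycoproteins between cells. In the intestine they lie under the epithelium and in the submucosa, supply growth factors to the crypts, and become activated in wounds and tumours. Decorin (Dcn) and lumican (Lum) are small leucine-rich proteoglycans that bind collagen fibrils. Periostin (Postn) and osteonectin (Sparc) are matricellular proteins, which sit in the matrix and modulate cell contact with it, and fibronectin (Fn1) is an adhesive glycoprotein bound by integrins. The platelet-derived growth factor receptors Pdgfra and Pdgfrb mark fibroblasts and, for Pdgfrb, also pericytes. Thy1 is a surface glycoprotein of fibroblasts, T cells and neurons, Fap is a serine protease of activated fibroblasts, and vimentin (Vim) forms the intermediate filaments of mesenchymal and blood-derived cells.

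Promoter windows of the RefSeq table (mouse GRCm38.p6) covered 4 of the 10 genes. The windows of Postn and Pdgfra are shown because they did not overlap an annotated exon, and because Postn is a member that passed the test and Pdgfra a member that did not. Each is 250 bases long, ends at the base before the gene's start and reads 5′ to 3′ on the gene's strand. Postn lies at chr3:54360857-54361106 (plus strand) and Pdgfra at chr5:75152001-75152250 (plus strand). Capitals mark matches to any of 5 motifs searched on both strands, the TATA box TATAAA, the CCAAT box CCAAT, the GC box GGGCGG, the AP-1 site TGANTCA and the TCF/LEF core CTTTGAT.
Postn: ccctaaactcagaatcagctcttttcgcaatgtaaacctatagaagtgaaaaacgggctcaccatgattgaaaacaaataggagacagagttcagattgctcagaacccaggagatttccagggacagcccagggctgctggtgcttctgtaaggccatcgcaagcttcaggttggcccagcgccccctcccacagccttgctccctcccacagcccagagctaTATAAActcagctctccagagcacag
Pdgfra: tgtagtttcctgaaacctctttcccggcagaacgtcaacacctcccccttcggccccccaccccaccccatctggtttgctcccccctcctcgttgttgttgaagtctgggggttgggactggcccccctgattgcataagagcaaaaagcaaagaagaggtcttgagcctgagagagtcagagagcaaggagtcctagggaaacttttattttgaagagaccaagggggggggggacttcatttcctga
The Postn window held 1 match, a TATA box from base -26 to base -21 before the start, and the Pdgfra window held none of the 5. Of the windows not shown, that of Vim held 3 matches, among them a TATA box from base -32 to base -27. The Sparc window held 0 matches. Neither Vim nor Sparc passed the test, and a link between motifs and calls was not tested. Over 32851 windows of the same length, 12.4% held TATAAA, 33.8% CCAAT, 32.7% GGGCGG, 6.75% TGANTCA and 3.21% CTTTGAT.

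The libraries held between 54895823 and 56825956 counts in APC-KI tumours and between 51777342 and 63921108 in APC-WT tumours. Tcf7l2, the gene repressed by design, stood at 5.57 ± 1.23 CPM in APC-KI and 41.2 ± 4.84 CPM in APC-WT tumours (SD, n = 3 each), and its groups did not overlap. CPM is a gene's count scaled to the size of its library, and is not corrected for gene length. Mitochondrially encoded genes took up to 2.43% of counts in APC-KI and up to 2.98% in APC-WT libraries, and the groups did not overlap. APC-WT replicates 1 and 2 held 19164 and 16055 counts of 4 Y-linked genes, whereas the 3 APC-KI libraries and APC-WT replicate 3 held 0. Counts of Xist, a gene expressed in females, were 22 and 32 in APC-WT replicates 1 and 2. They were 118749 in APC-WT replicate 3 and 108997 to 119040 in APC-KI libraries. Sex as read from these counts thus differed between the groups in part, and fully in fits without APC-WT replicate 3. All 10 genes were present in every tumour, above 1 CPM in all 6 libraries. Since other cells also carry some of them, this does not measure fibroblasts alone. The lowest counts were 71 for Lum, in APC-WT replicate 1, and 66 for Fap, in APC-WT replicate 2.

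Stromal marker genes were mostly higher in tumours of recovered APC-KI animals. Dcn, Postn and Thy1 rose 3.23-fold, 2.07-fold and 1.78-fold, and Lum, Sparc, Fap, Fn1, Pdgfrb, Pdgfra and Vim did not pass the test. Thus 3 of 10 were called higher, where 12.5% of all genes tested were, and 0 of 10 were called lower, where 7.63% of all genes were (edgeR's quasi-likelihood test, adjusted p under 0.05 by Benjamini-Hochberg over all genes, 20.1% of them called in either direction). At an unadjusted p under 0.05, 7 members were higher and 0 lower, and both DESeq2 and limma-voom called 0 lower. Many genes reached that level in either direction. Lum, the last of these 7 (edgeR unadjusted p = 0.0463), ranked 7034 by p among the 19127 genes tested. The log2 change was above 0 for 9 of the 10, against 48.5% of all genes, and its median was 0.83, against −0.02 over all genes tested. Scaling by library totals alone made 41.0% of all calls higher in place of 62.1%, and there 2 members were called higher (Dcn and Thy1). For 8 of the 10 the lowest APC-KI library lay above the highest APC-WT library, against 23.0% of all genes. The exceptions were Fn1 and Vim. With 3 libraries against 3, an exact two-sided permutation test cannot give a p below 0.1 for a single gene. In bulk tumour RNA, more fibroblasts and more RNA per fibroblast cannot be told apart.

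**Figure D1:**
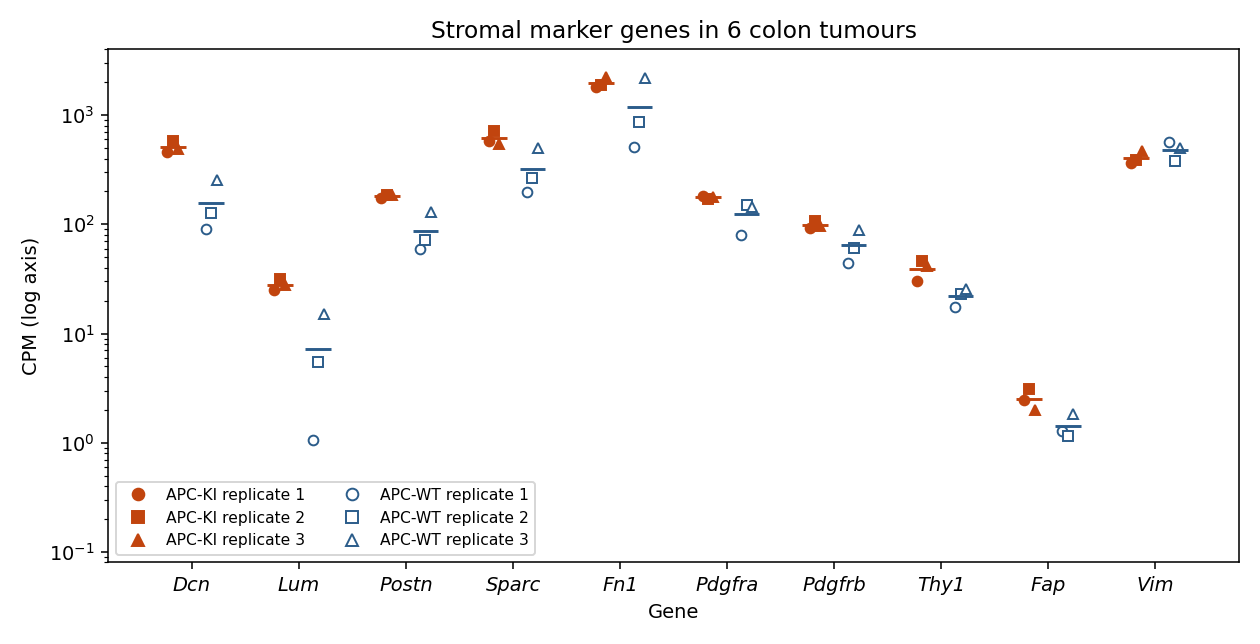
Levels of the 10 genes in CPM (log axis), with filled symbols for the 3 APC-KI libraries, open symbols for the 3 APC-WT libraries and lines at the group means. The APC-KI libraries lie close together and above the APC-WT libraries for 8 genes, and the groups overlap for Fn1 and Vim.

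Both proteoglycans were higher in every APC-KI library than in any APC-WT library, but only Dcn passed. Dcn had 459.6, 580.3 and 493 CPM in APC-KI replicates 1 to 3, against 91.4, 126 and 257 CPM in APC-WT replicates 1 to 3. The lowest APC-KI value was 1.79 times the highest APC-WT value. Its log2 change was 1.69 ± 0.37 (SE, edgeR adjusted p = 0.0274). Lum had 25.1, 31.3 and 27.8 CPM in APC-KI tumours, against 1.06, 5.45 and 15.1 CPM in APC-WT tumours. The APC-WT libraries thus spread over 14.1-fold, and the APC-KI libraries over 1.24-fold. The log2 change of Lum, 1.97 ± 0.80, had the largest size of the 10 and did not pass (edgeR adjusted p = 0.126). Dcn and Lum both lie on mouse chromosome 10.

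Of 13 other small leucine-rich proteoglycans tested, 5 rose and 0 fell, with a median log2 change of 0.98 (1 was lower at an unadjusted p under 0.05, and DESeq2 and limma-voom called 0 lower). Prelp, which anchors basement membrane to connective tissue, stood at 143 ± 35.0 CPM in APC-KI and 34.7 ± 19.2 CPM in APC-WT tumours (SD, n = 3 each). Optc, known from the vitreous of the eye, was far rarer, at 1.24 ± 0.56 CPM in APC-KI and 0.19 ± 0.04 CPM in APC-WT tumours. Omd, Kera and Epyc had too few counts to be tested.

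Among the matricellular and adhesive proteins, Postn rose, and Sparc and Fn1 did not pass. Postn had 173, 185 and 185 CPM in APC-KI tumours, against 59.4, 72.3 and 130.0 CPM in APC-WT tumours. Its APC-KI libraries differed by 1.07-fold at most, the narrowest range of the 10, and its groups did not overlap. The log2 change was 1.05 ± 0.28 (edgeR adjusted p = 0.0449). Sparc had 581, 709 and 545 CPM in APC-KI tumours, against 199.7, 268 and 499.8 CPM in APC-WT tumours. Here APC-WT replicate 3 came within 1.09-fold of the lowest APC-KI library, and the log2 change of 0.92 ± 0.33 did not pass (edgeR adjusted p = 0.0937). Fn1 had 1808, 1903 and 2221 CPM in APC-KI tumours, against 515, 867 and 2185 CPM in APC-WT tumours. APC-WT replicate 3 was above APC-KI replicates 1 and 2, so the groups overlapped, and the log2 change was 0.73 ± 0.49 (edgeR adjusted p = 0.316).

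Of 19 other matricellular genes, 7 rose and 0 fell, with a median log2 change of 0.82, and DESeq2 called 1 of them lower (1 also at an unadjusted p under 0.05 in edgeR, 0 in limma-voom). Fibulin-2 (Fbln2) was 4.23-fold and Sparcl1, a relative of Sparc, 2.92-fold higher. Of 18 elastic fibre and cross-linking genes, 7 rose and 0 fell, with a median of 0.91 (0 lower at an unadjusted p under 0.05 and by DESeq2 or limma-voom). Mfap5 and Efemp1, which associate with elastic fibres, were 4.64-fold and 3.94-fold higher. Of 9 collagen genes of fibroblasts, edgeR called 2 higher, Col6a1 and Col6a2, chains of the microfibrillar collagen VI, with log2 changes of 0.54 and 0.46. At an unadjusted p under 0.05 edgeR had 7 of the 9 higher, DESeq2 called 7 and limma-voom 4, each with 0 lower, and the median log2 change was 0.89. Of 9 genes for integrin chains and a syndecan that bind fibronectin or periostin, 3 rose and 0 fell, with a median of 0.60 (0 lower by any of the 3 tools). Itga4, a fibronectin receptor chain of white blood cells, and Itgb6, an epithelial one, were 2.03-fold and 2.06-fold higher. Without APC-WT replicate 3, 12.9% of all genes were called higher, in a fit that cannot tell group from sex as read from the counts. There edgeR called 11 of the matricellular and 12 of the elastic fibre and cross-linking genes higher. It also called 7 of the collagens and 7 of the integrin and syndecan genes higher. In the 4 libraries without Y-linked counts, the median log2 changes of these lists were 0.31, 0.42, 0.37 and 0.31 in the same order.

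Among the surface proteins Thy1 rose. Thy1 had 30.0, 45.9 and 41.7 CPM in APC-KI tumours, against 17.5, 23.0 and 25.7 CPM in APC-WT tumours. The groups did not overlap, and the means were 39.2 ± 8.25 CPM in APC-KI and 22.1 ± 4.16 CPM in APC-WT tumours (SD, n = 3 each). The log2 change was 0.83 ± 0.20 (edgeR adjusted p = 0.0331). Since T cells and neurons also carry Thy1, their markers are given beside it. Summed T cell markers stood at 37.6 to 58.4 CPM in APC-KI and 26.9 to 29.6 CPM in APC-WT tumours, with 4 of 8 higher and 0 lower, and none at 0 in every library. Summed enteric neuron markers stood at 33.1 to 46.8 CPM in APC-KI and 22.3 to 44.9 CPM in APC-WT tumours, with 3 of 8 tested higher and 0 lower. For both lists 0 genes were lower at an unadjusted p under 0.05 or by DESeq2 or limma-voom. Their part in the Thy1 result was not tested.

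The growth factor receptors were higher in APC-KI tumours without passing the test. Pdgfra had 183, 169.7 and 177 CPM in APC-KI tumours, against 80.0, 151 and 144 CPM in APC-WT tumours. APC-WT replicate 1 was the lowest library, and APC-WT replicate 2 came within 1.13-fold of the lowest APC-KI library. The log2 change was 0.50 ± 0.23 (edgeR adjusted p = 0.165). Pdgfrb had 91.9, 108 and 97.5 CPM in APC-KI tumours, against 44.0, 60.4 and 89.3 CPM in APC-WT tumours. APC-WT replicate 3 came within 1.03-fold of the lowest APC-KI library, the closest approach among the 8 genes without overlap, and the log2 change was 0.62 ± 0.24 (edgeR adjusted p = 0.117). Of the 4 ligands of these receptors 0 passed in either direction (0 also at an unadjusted p under 0.05 and by DESeq2 and limma-voom), with a median log2 change of −0.14, and without APC-WT replicate 3 edgeR called 1 lower. Pdgfc averaged 8.38 ± 1.41 CPM in APC-KI and 13.8 ± 5.87 CPM in APC-WT tumours, and Pdgfb 15.5 ± 0.94 CPM in APC-KI and 18.3 ± 3.29 CPM in APC-WT tumours (SD, n = 3 each).

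Fap was rare. It had 2.44, 3.10 and 1.99 CPM in APC-KI tumours, against 1.27, 1.16 and 1.81 CPM in APC-WT tumours. The groups did not overlap, the nearest libraries being 1.10-fold apart, and the log2 change of 0.83 ± 0.28 did not pass (edgeR adjusted p = 0.0783). Of 6 relatives of Fap in the prolyl oligopeptidase family, 0 rose and 2 fell, with a median log2 change of 0.05 (0 higher at an unadjusted p under 0.05 and by DESeq2 or limma-voom). Without APC-WT replicate 3 edgeR called 1 of them lower. Dpp6, which modulates neuronal potassium channels, stood at 0.44 ± 0.07 CPM in APC-KI and 1.46 ± 0.71 CPM in APC-WT tumours, and Prep, a cytosolic peptidase, at 113 ± 8.45 CPM in APC-KI and 140.3 ± 10.4 CPM in APC-WT tumours (SD, n = 3 each).

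Vim was the exception to the direction of the others. It had 368, 387 and 473 CPM in APC-KI tumours, against 564, 381 and 504 CPM in APC-WT tumours. The groups overlapped, APC-WT replicate 1 being the highest of the 6 libraries and APC-KI replicate 1 the lowest. The log2 change was −0.24 ± 0.16 (edgeR adjusted p = 0.328).

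The libraries of each group were not equally alike in these genes. Among APC-WT tumours replicate 3 was the highest for 8 of the 10 genes, all but Pdgfra and Vim, and replicate 1 the lowest for 8, all but Fap and Vim. Replicate 3 exceeded the mean of replicates 1 and 2 for all 10 genes, and for 9938 of the 19127 genes tested. The median excess was 0.89 on the log2 scale for the 10, against 0.01 over all genes tested. Fn1 was 4.25-fold and Dcn 2.82-fold higher in APC-WT replicate 3 than in replicate 1. Among APC-KI tumours replicate 2 was highest for 6 genes and replicate 1 lowest for 7. The median SD of log2 CPM over the 10 genes was 0.165 in APC-KI and 0.549 in APC-WT tumours. Over all genes tested it was 0.173 in APC-KI and 0.199 in APC-WT tumours. The SD was larger in APC-WT tumours for 9 of the 10, against 55.1% of all genes tested. Summed over the 10 genes, the level was 3722 to 4263 CPM in APC-KI tumours and 1573, 1955 and 3851 CPM in APC-WT replicates 1 to 3. Without Fn1 and Vim the sums were 1546 to 1832 CPM in APC-KI tumours and 494, 707 and 1163 CPM in APC-WT replicates 1 to 3.

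**Figure D2:**
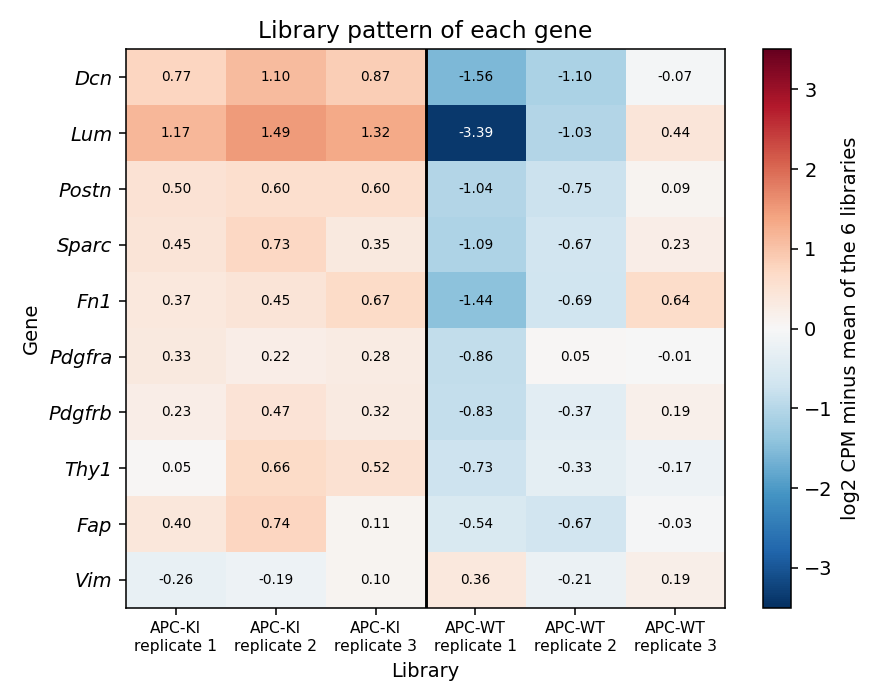
Each gene's log2 CPM in each library minus its mean over the 6 libraries, with APC-KI libraries left of the line and APC-WT libraries right of it. APC-WT replicate 1 is lowest for 8 genes, down to −3.39 for Lum, and APC-WT replicate 3 lies nearest to the APC-KI libraries for most genes.

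The number of the 10 genes called depended on single libraries. Without APC-WT replicate 3, 7 passed as higher (Dcn, Lum, Postn, Sparc, Fn1, Pdgfrb and Thy1), where 12.9% of all genes did, and the log2 changes were 2.23 for Dcn, 3.11 for Lum and 1.52 for Fn1 (edgeR adjusted p = 0.00346, 0.0459 and 0.0141). That fit cannot tell group from sex as read from the counts, since APC-WT replicate 3 was the lone APC-WT library without Y-linked counts. In a fit of the 4 libraries that lack them, whose lone APC-WT library is taken to be as variable as the APC-KI ones, edgeR called 0 of the 10 (4 higher and 0 lower at an unadjusted p under 0.05), and 0.872% of all genes were called higher. The log2 changes there were 0.99 for Dcn, 0.89 for Lum, 0.47 for Postn and 0.61 for Thy1, and −0.15 for Fn1. With the presence of Y-linked counts as a covariate, edgeR again called 0 of the 10 (2 higher and 0 lower at an unadjusted p under 0.05), against 1.15% of all genes called higher, and the log2 changes were 0.99 for Dcn and −0.14 for Fn1. Direct ratios to that single library were 1.99 for Dcn, 1.86 for Lum and 1.39 for Postn, as the APC-KI mean over APC-WT replicate 3, and 0.905 for Fn1. APC-WT replicate 3 also differed from the other APC-WT libraries in Xist counts, and what sets it apart in the stromal genes was not tested.

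**Figure D3:**
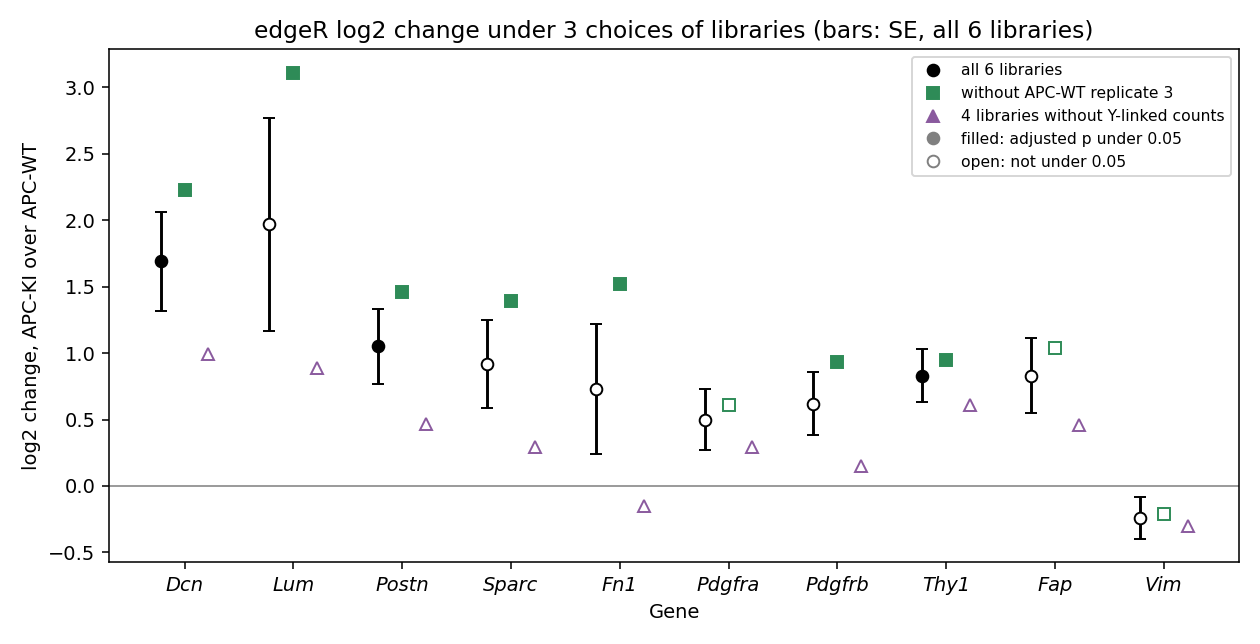
edgeR log2 change (APC-KI over APC-WT) of each gene with all 6 libraries (circles, bars show the SE), without APC-WT replicate 3 (squares) and in the 4 libraries that lack Y-linked counts (triangles), filled where the adjusted p is under 0.05. Without APC-WT replicate 3 the change is above that with all libraries for all 10 genes and 7 are filled. Group and the presence of Y-linked counts cannot be told apart in that fit. In the 4 libraries the change is below that with all libraries for all 10.

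Leaving out any other library left 0 or 1 of the 10 genes called. Over all genes, 1273, 1378 and 3927 were called without APC-KI replicates 1, 2 and 3 in turn. Without APC-WT replicates 1 and 2 in turn, 2458 and 1159 were called, against 3847 with all 6 libraries. Dcn did not pass without APC-KI replicate 1, APC-KI replicate 2 or APC-WT replicate 2 (edgeR adjusted p = 0.0712, 0.0778 and 0.0948). Postn passed only when the library left out was APC-WT replicate 3 (edgeR adjusted p = 0.00279, and 0.0698 to 0.134 without each of the others). Thy1 did not pass without APC-KI replicate 2, APC-KI replicate 3, APC-WT replicate 1 or APC-WT replicate 2 (edgeR adjusted p = 0.105, 0.0662, 0.072 and 0.0961). By tool, DESeq2 called Sparc and Fap in addition (adjusted p = 0.0184 and 0.0266), 5 of 10 where 15.1% of all genes were called higher, and limma-voom called Lum in addition (adjusted p = 0.0391), 4 of 10 where 13.0% were.

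Ratios within a library compare related genes without the scaling between libraries. The log2 ratio of Dcn to Lum was 4.19, 4.21 and 4.15 in APC-KI tumours, against 6.38, 4.53 and 4.09 in APC-WT tumours. The APC-KI libraries were within an SD of 0.03 of each other, while APC-WT replicate 1 stood far above the other APC-WT libraries. The difference of means, −0.81, did not pass an exact two-sided permutation test (p = 0.4, and 0.6 adjusted over the 3 pairs compared), and it was −0.12 without APC-WT replicate 1. The log2 ratio of Pdgfra to Pdgfrb averaged 0.83 ± 0.17 in APC-KI and 0.96 ± 0.32 in APC-WT tumours (exact permutation p = 0.6). The log2 ratio of Postn to Sparc averaged −1.75 ± 0.19 in APC-KI and −1.86 ± 0.10 in APC-WT tumours (SD, n = 3 each, exact permutation p = 0.4). In each of these pairs the groups overlapped.

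**Figure D4:**
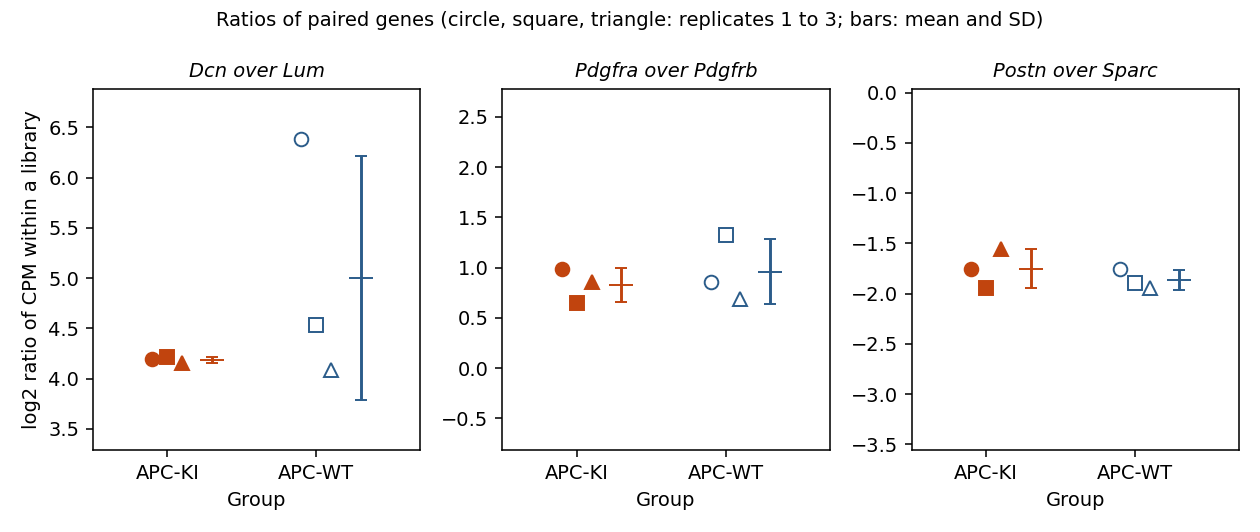
Log2 ratio of CPM between paired genes within each library, APC-KI left and APC-WT right in each panel, with mean and SD beside the points and panels of equal height. The Dcn to Lum ratio is 4.09 to 4.53 in 5 libraries and 6.38 in APC-WT replicate 1, and the other ratios overlap between groups.

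Per kilobase of exon, which allows genes to be compared, the most abundant members in APC-KI tumours were Fn1 and Sparc, at 169 ± 18.5 and 162 ± 22.8 CPM per kb, whose ranges overlapped (SD, n = 3). Dcn and Vim followed at 87.5 ± 10.7 and 86.3 ± 11.7 CPM per kb, also overlapping. Postn, Pdgfrb, Pdgfra, Thy1 and Lum lay between 20.8 and 11.5 CPM per kb in this order, in which Pdgfrb overlapped Pdgfra and Thy1 overlapped Lum, and Fap was last at 0.443 ± 0.098 CPM per kb. In APC-WT tumours Vim and Fn1 were at 102 ± 19.7 and 102 ± 75.3 CPM per kb and Sparc at 85.1 ± 41.5 CPM per kb, with overlapping ranges. Dcn came next at 27.1 ± 15.0 CPM per kb, and Pdgfra, Pdgfrb, Postn, Thy1 and Lum overlapped each in turn with the next, from 12.5 to 2.94 CPM per kb. Among 19074 tested genes with an exonic length, Dcn ranked 516 in APC-KI and 1887 in APC-WT tumours by this measure, Lum ranked 5060 in APC-KI and 10594 in APC-WT tumours, and Vim ranked 523 in APC-KI and 333 in APC-WT tumours.

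Fibroblast subsets were compared through further lists. Of 12 genes of submucosal and adventitial fibroblasts 8 rose and 0 fell, with a median log2 change of 1.32 (0 lower at an unadjusted p under 0.05 and by DESeq2 or limma-voom). Clec3b, a plasminogen-binding lectin, stood at 4.46 ± 0.45 CPM in APC-KI and 1.16 ± 0.27 CPM in APC-WT tumours, and Ly6a, a surface protein that epithelium and leukocytes also carry, at 754 ± 101 CPM in APC-KI and 379.5 ± 37.9 CPM in APC-WT tumours (SD, n = 3 each). Of 11 genes of subepithelial fibroblasts (telocytes) 2 rose and 2 fell, with a median of 0.55. F3, the coagulation receptor tissue factor, rose 1.89-fold, and Bmp7, a bone morphogenetic protein, had 42.0 ± 0.88 CPM in APC-KI and 64.5 ± 10.8 CPM in APC-WT tumours. Chosen once their values were known, the other called genes of that list are the transcription factors Foxf1 (log2 change 0.51) and Sox6 (log2 change −1.01). Of 14 genes of activated fibroblasts 5 rose and 1 fell, with a median of 1.07. The chemokine Cxcl12 and the protease Mmp2 were 3.07-fold and 2.21-fold higher, and the gene that fell, also chosen once its value was known, was the protease Mmp11 (log2 change −0.66). Named in the same way, the other genes called higher were Acta2, Tagln and Col8a1 (log2 changes 1.75, 2.2 and 1.7). Smooth muscle also expresses Acta2 and Tagln, and its part in these calls was not tested. Without APC-WT replicate 3, 8 of the 14 were called higher and 1 lower. That fit cannot tell group from sex as read from the counts. The 4 libraries without Y-linked counts gave median log2 changes of 1.32 (submucosal and adventitial), 0.17 (subepithelial) and 0.4 (activated).

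Markers of other cell types were called higher in part, and smooth muscle markers in full. All 10 smooth muscle markers rose, with a median log2 change of 2.23 and a summed level of 715 to 1158 CPM in APC-KI and 178 to 337 CPM in APC-WT tumours, APC-WT replicate 3 being the highest of its group. Myh11, the smooth muscle myosin, was 5.73-fold and the filament protein Synm 4.36-fold higher. The tumours had been pinched off the muscle layer, per the labels' protocols, and the bearing of this on the smooth muscle markers was not tested. Of 10 pericyte markers 5 rose and 0 fell (median 0.70, summed level 368 to 399.7 CPM in APC-KI and 165 to 220.2 CPM in APC-WT tumours), with the channel subunit Abcc9 2.40-fold and the metalloreductase Steap4 2.89-fold higher. Among 13 markers of endothelium 6 rose and 0 fell (median 0.61, summed level 406 to 510.5 CPM in APC-KI and 263 to 358 CPM in APC-WT tumours), with Ptprb, a phosphatase of vessel junctions, and the factor Erg 1.52-fold and 1.88-fold higher. Of 10 macrophage markers 3 rose and 0 fell (median 0.48, summed level 646 to 909 CPM in APC-KI and 479 to 603 CPM in APC-WT tumours), with Cd14 1.88-fold and Itgam 2.30-fold higher. Of the T cell markers Cd5 and Trac were 2.34-fold and 2.03-fold higher. For these lists edgeR at an unadjusted p under 0.05, DESeq2 and limma-voom each gave 0 lower genes. In the 4 libraries without Y-linked counts, of which 1 is APC-WT, the median log2 change was 1.71 for smooth muscle markers. There it was 0.41 for pericyte, 0.37 for endothelial, 0.3 for macrophage and 0.96 for T cell markers, the last against 0.80 with all 6 libraries. The part of these cells in the stromal results was not tested.

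Rarer cell types were covered by short lists. The neuron gene Prph, an intermediate filament of peripheral neurons, averaged 1.17 ± 0.29 CPM in APC-KI and 0.32 ± 0.08 CPM in APC-WT tumours (SD, n = 3 each). Of 5 enteric glia markers tested, Cdh19 and S100b rose and 0 fell, with a summed level of 12.6 to 14.1 CPM in APC-KI and 9.24 to 12.5 CPM in APC-WT tumours. Of 3 adipocyte markers tested, Cidec and Plin4, which coat lipid droplets, rose 3.36-fold and 2.01-fold and 0 fell, with a summed level of 14.1 to 16.7 CPM in APC-KI and 7.31 to 10.5 CPM in APC-WT tumours. Of 5 mesothelial markers Msln alone could be tested and did not pass (log2 change −0.72 ± 0.59, edgeR adjusted p = 0.408). Of 11 pan-epithelial markers 5 rose and 0 fell, with a median of 0.43 and a summed level of 10292 to 12334 CPM in APC-KI and 8228 to 9348 CPM in APC-WT tumours, Krt20, a keratin of mature surface cells, being 5.43-fold and the claudin Cldn7 1.38-fold higher. In the glia, adipocyte, mesothelial and epithelial lists 0 genes were lower at an unadjusted p under 0.05 or by DESeq2 or limma-voom.

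**Figure D5:**
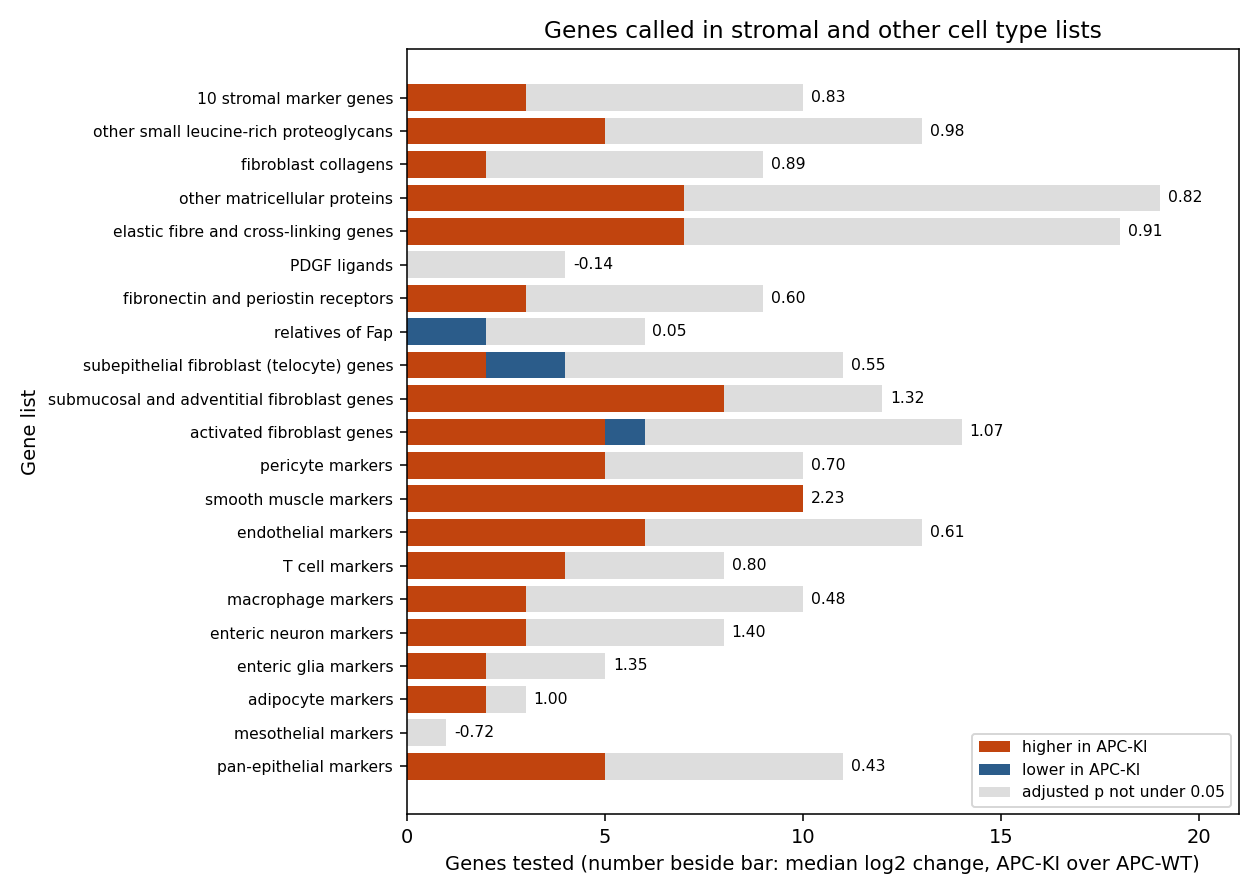
Number of genes tested in each list, split into those higher in APC-KI, those lower in APC-KI and those whose edgeR adjusted p is not under 0.05, with the median log2 change beside each bar. Smooth muscle markers are called in full (10 of 10, median 2.23), while the 10 stromal marker genes have 3 calls and a median of 0.83.

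Genes whose library pattern was closest to the mean pattern of the 10 markers were found by the root mean square difference of centred log2 CPM over the 6 libraries, among 10848 named protein-coding genes whose average log2 CPM reached 3. The nearest were Clec5a (difference 0.0639), a myeloid receptor, Plod2 (0.0669), which hydroxylates collagen lysines, Armcx2 (0.0694), Irf7 (0.0711), a factor of the interferon response, Fbln5 (0.0725), an elastic fibre fibulin, Zeb2 (0.0756), a mesenchymal transcription factor, Kirrel (0.0772) and Ehd2 (0.0772), a protein of caveolae. The median difference over the candidates was 0.655. Plod2 had 24.6, 30.2 and 27.1 CPM in APC-KI tumours, against 7.89, 11.8 and 20.8 CPM in APC-WT tumours, and so repeated the order of the APC-WT libraries seen for Dcn, Lum, Postn, Sparc, Fn1, Pdgfrb and Thy1. Of these 8 genes only Kirrel passed the test (log2 change 1.05 ± 0.27, edgeR adjusted p = 0.0411). Among the markers themselves Sparc and Postn lay closest to the mean pattern (0.0958 and 0.0992) and Vim and Lum farthest from it (0.768 and 1.10).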

How the data were processed

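Polyadenylated RNA of 6 colon tumours was sequenced with a TruSeq Stranded mRNA kit, per the labels' protocols. The submitters' processing notes name STAR, DESeq2 1.37.6, cutadapt 2.5 and Trim Galore 0.6.4, with the builds GRCm38 and mm10. The counting tool, its use of strand and its annotation release are not given in the sources used here. As deposited by the authors, the values are raw whole-number counts per Ensembl gene. Symbols, chromosomes and exonic lengths came from GENCODE M21, which matched 52093 of 53700 identifiers. Only 35 identifier versions were equal, so lengths are approximate and no gene coordinates are given for the counts. Fn1 and Pdgfra overlap antisense models, whose reads may not be told apart.

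Genes were kept with filterByExpr, scaled by TMM and tested with edgeR 4.0.16 in R 4.3.3 (robust glmQLFit, glmQLFTest, group alone), with p adjusted over 19127 genes and a threshold of 0.05. CPM uses TMM-scaled totals, and log2 CPM a prior count of 2. The steps were tested on simulated data. Libraries of a group differed beyond sampling noise (chi-square per gene 40.1 to 114.5). The 10 genes and the 20 further lists (207 genes) were chosen with earlier results of these data known. The text names all 10 members, Tcf7l2, the 2 genes of smallest p in each list and the 8 genes of nearest pattern, except 1 list gene that is not reported here. DESeq2 1.42.0, limma-voom (limma 3.58.1), other scalings and filters, the replicate number as a block, Y-linked counts and each library left out were alternatives.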

Additional observations from a re-analysis of the deposited data

How the results depend on the processing

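With all 6 libraries 3847 genes, 3 stromal markers and 84 genes of the further lists were called. Leaving out 1 library at a time gave 1159 to 3927 genes, 0 to 7 markers and 21 to 114 list genes, partly because fewer samples were fitted. The markers called were 0 without APC-KI replicate 2 or APC-WT replicate 2 (edgeR, 3 higher, and 4 higher with 1 lower, at an unadjusted p under 0.05). With Y-linked counts as a covariate 415 genes, 0 markers and 5 list genes were called, and over the 4 libraries without such counts 330, 0 and 6. DESeq2 called 5 markers, and edgeR with no filter on low counts called 1 (Thy1), with more genes tested. Library totals alone shifted the median over all genes by −0.116 (log2), made 41.0% of calls higher in place of 62.1% and lost Postn (adjusted p = 0.0512). Replicate numbers were shared between groups but did not pair the samples: correlations of same-numbered deviations were 0.035, −0.068 and −0.182. With the number as a block 1660 genes and 2 markers (Dcn and Thy1) were called.

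All 10 markers kept their direction in all 17 alternatives, except Fn1, at −0.14 with the Y-linked covariate and −0.15 over the 4 libraries, and the cause was not tested. The Dcn to Lum difference was −1.27 to −0.12 without each library, Pdgfra to Pdgfrb −0.26 to 0.05 (0.05 without APC-WT replicate 2) and Postn to Sparc 0.01 to 0.21. At 66 to 162 counts Fap is the marker most limited by depth.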
